A study of Mus musculus with 12 samples.

Results

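Regulators of G protein signalling (RGS) are described here through 10 genes of the family, Rgs2, Rgs3, Rgs4, Rgs5, Rgs7, Rgs9, Rgs10, Rgs12, Rgs14 and Rgs16, of 24421 genes measured in mouse adrenal glands. The genes were taken by name, and the set was chosen by the difference of Rgs7 between Abcg1 cKO adrenals and the other adrenals, with the means of the other members known. All 10 were in the deposited data, and all 10 had a mean of at least 5 normalized counts over the libraries, the limit used below. The remaining 12 RGS genes of the mouse were used for comparison, and 7 of these reached that level.

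RGS proteins speed up the hydrolysis of GTP by the alpha subunits of heterotrimeric G proteins and so shorten the signal of a G protein coupled receptor. The family is divided by sequence into an R4 group of small proteins, an R7 group whose members need the G protein beta subunit Gnb5 for stability, an R12 group and an RZ group. In the adrenal cortex, the receptor for ACTH acts through a stimulatory G protein, and the angiotensin receptor of the zona glomerulosa acts through proteins of the Gq group. In the medulla, receptors coupled to inhibitory G proteins restrain catecholamine release.

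Whole adrenals, cleared of adherent fat, came from 2-month-old female mice on a mixed sv129-C57BL/6 background, and 12 polyA-selected libraries were made. In the 4 Abcg1 cKO mice both Abcg1 alleles were conditional, and in the 4 Abca1 cKO mice both Abca1 alleles were. Both kinds of mice carried a Cre recombinase driven from the aldosterone synthase locus (Cyp11b2), which acts in zona glomerulosa cells and is kept in the cells that descend from them, so medulla, vessels and other cells of the gland keep their alleles. The series description gives the 4 control mice as carrying the Cre alone, whereas the methods describe control littermates with the Cre alone or with 1 of the conditional alleles, so whether every control carried the Cre and no conditional allele is not settled. The study set Abcg1 cKO adrenals against a combined group of the 8 control and Abca1 cKO adrenals, which is the only comparison group here.

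Each value is a group mean of counts that the authors had divided by a size factor per library, and is called the mean normalized count. Single-library values could not be tied to labelled samples and the authors' own test was not used, so no spread between animals, no test and no depth per library are given. Whether a difference exceeds the spread between replicates was therefore not assessed here for any gene below, and the 2 kinds of mice in the combined group cannot be told apart. The log2 ratio is Abcg1 cKO over the combined group after adding 1 to each mean. A gene whose ratio passes a fold of 1.2 (0.26 on the log2 scale) is called higher or lower, which is a statement about 2 means and not a test. Of 15103 genes with a mean of at least 5 over all libraries, 11.1% were higher and 13.7% lower by this rule, and the median log2 ratio was close to 0, at -0.00075. The targeted gene, Abcg1, on chromosome 17 from 31057675 to 31117988, had means of 305 in the combined group and 250 in Abcg1 cKO adrenals, a log2 ratio of -0.29. A gene-level count also includes the exons that Cre leaves in place, so it is a weak check of the labels. The cortical defining markers Nr5a1, Star, Cyp11a1, Cyp11b1 and Cyp21a1 were all abundant in both groups, as were the medullary markers Th and Dbh.

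Among the 10 RGS genes, Rgs7 and Rgs2 were higher in Abcg1 cKO adrenals, Rgs12, Rgs14 and Rgs16 were lower, and the other 5 lay within the fold of 1.2. Thus 2 of 10 were higher, beside 11.1% of all genes, and 3 of 10 were lower, beside 13.7%. Because the set was chosen with these means known, nothing is read from the shares. The median log2 ratio of the 10 genes was -0.02. Rgs3, Rgs9 and Rgs10 lay within 0.1 of 0.

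**Figure D1:**
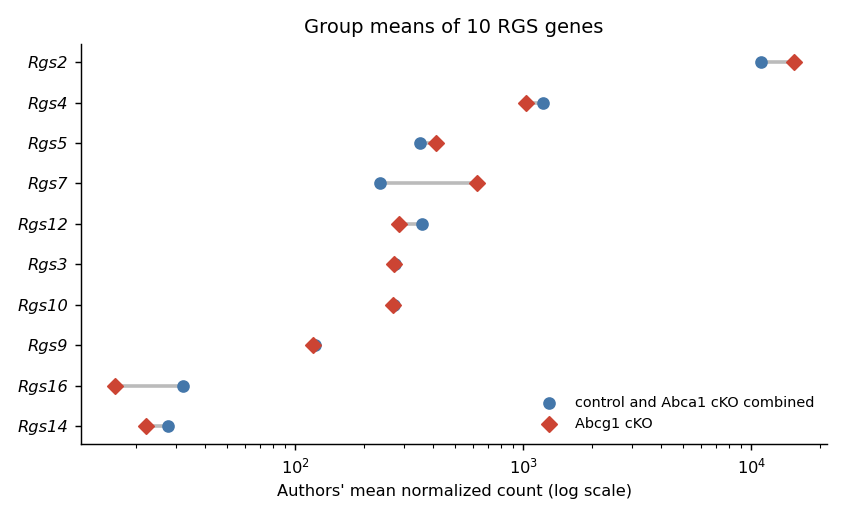
The authors' mean normalized count (log axis) of 10 RGS genes in the combined control and Abca1 cKO group (blue circles) and in Abcg1 cKO adrenals (red diamonds), joined by a grey line for each gene. The longest lines are those of Rgs7, from 235 to 628, and Rgs16, from 32.0 to 16.1. No error bars can be drawn because only group means were used.

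Rgs7 encodes an R7 protein that acts on inhibitory G proteins and is best known from neurons. Its mean was 235 normalized counts in the combined group and 628 in Abcg1 cKO adrenals, so the mean was 2.67-fold higher (log2 ratio 1.42). This ratio was the 33rd from the top of all 15103 genes, and the 15th of 5370 genes with a mean from 50 up to 500. In that range of levels the 5th and 95th percentiles of the log2 ratio were -0.47 and 0.42. This describes differences among genes and not among mice. Since this contrast chose the set, the value is a description only.

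Rgs7 spans 433 kb on the minus strand of chromosome 1 of GRCm38 (mm10), from 175059087 to 175492500, and has 18 merged exon blocks over 8 annotated transcripts. A transcript model of unsettled class, 5730408A14Rik, overlaps it on the same strand. The 250 bases before a RefSeq start site of each of Rgs7, Rgs2 and Rgs4 are shown because these genes had the largest ratio and the highest levels among the members. The start used for Rgs7 lies outside the GENCODE bounds above. The bases after it were not found in an annotated transcript, unlike those of Rgs2 and Rgs4. The RefSeq gene also reaches upstream of the Rgs7 window, so the window does not precede its farthest start. Capitals mark 2 kinds of match, TGACG or its reverse complement (the core of the cAMP response element) and the TATA box TATAAA. The windows lie at chr1:175492546-175492795 for Rgs7, chr1:144004150-144004399 for Rgs2 and chr1:169747643-169747892 for Rgs4, all on the minus strand of GRCm38.p6, and each is printed 5′ to 3′ toward its gene.
Rgs7: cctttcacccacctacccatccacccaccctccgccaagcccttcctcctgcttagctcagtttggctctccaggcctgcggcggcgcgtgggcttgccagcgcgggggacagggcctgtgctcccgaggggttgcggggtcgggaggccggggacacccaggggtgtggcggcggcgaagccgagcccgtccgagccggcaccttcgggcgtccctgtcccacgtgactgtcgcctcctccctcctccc
Rgs2: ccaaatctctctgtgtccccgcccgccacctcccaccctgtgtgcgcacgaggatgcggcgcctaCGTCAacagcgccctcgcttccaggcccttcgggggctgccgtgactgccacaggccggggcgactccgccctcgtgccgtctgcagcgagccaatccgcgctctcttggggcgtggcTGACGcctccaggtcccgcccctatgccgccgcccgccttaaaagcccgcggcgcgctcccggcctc
Rgs4: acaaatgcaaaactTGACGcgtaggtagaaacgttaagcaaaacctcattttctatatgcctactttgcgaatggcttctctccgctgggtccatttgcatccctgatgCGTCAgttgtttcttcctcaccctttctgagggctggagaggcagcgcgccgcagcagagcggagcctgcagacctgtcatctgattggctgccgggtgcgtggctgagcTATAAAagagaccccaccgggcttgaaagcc

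The Rgs7 window had a GC content of 72.4% and 22 CG pairs, against a median of 52.4% and 6 pairs in 32851 mouse promoter windows of the same length. It held no match to any of the motifs searched on both strands, which were TGACG, the full element TGACGTCA (which contains that core on both strands), the SF-1 site AAGGTCA, the sterol regulatory element TCACNCCAC and the TATA box. The Rgs2 window, equally GC-rich with 30 CG pairs, had TGACG or its reverse complement beginning 185 and 67 bases before the start. In the Rgs4 window, these letters began 236 and 141 bases before the start, and a TATA box began 31 bases before it. Of all windows, 17.8% held TGACG, 1.55% the full element, 4.08% the SF-1 site, 1.05% the sterol element and 12.4% the TATA box. Windows were at hand for 9 of the 10 genes. Of these, 3 (Rgs2, Rgs4 and Rgs12) had TGACG, 3 (Rgs3, Rgs4 and Rgs9) had a TATA box, and no window held the full element, the SF-1 site or the sterol element. A match is only a match of letters, and its absence concerns only this window.

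Neighbouring genes of Rgs7 on chromosome 1 had smaller ratios. Among 23 measured genes considered within 1000 kb of it, many of them olfactory receptor genes listed at 0, 8 had a mean of at least 5. Of these 8, 3 were higher and 1 was lower, with log2 ratios from -0.71 to 0.79. Fh1, the mitochondrial fumarase, 109 kb away, was at 2798 and 3296 (log2 ratio 0.24). On the other side, Fmn2, a formin, was at 84.0 and 145 (0.79). Exo1, an exonuclease of DNA repair, was lower, at 23.2 and 13.8 (-0.71).

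**Figure D2:**
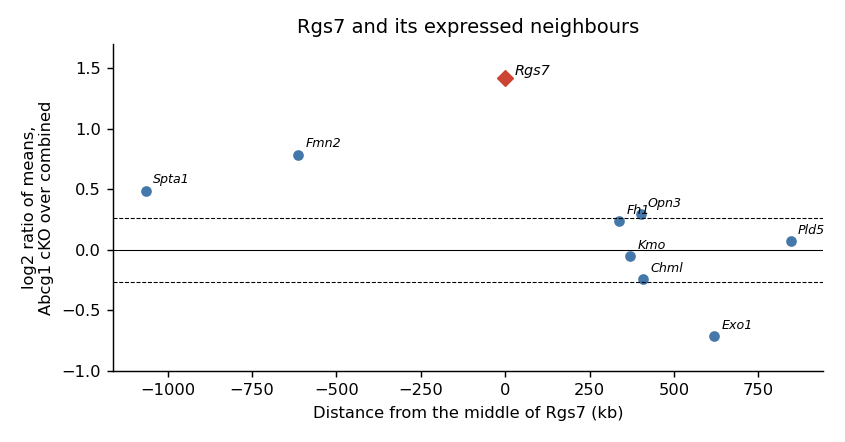
The log2 ratio of group means, Abcg1 cKO over combined, of Rgs7 (red diamond) and 8 neighbours with a mean of at least 5 (blue circles), by distance between gene middles in kb. Dashed lines mark a fold of 1.2. Rgs7 lies at 1.42, and the highest of these neighbours, Fmn2, at 0.79.

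Of the other genes of the R7 group, none past the level limit had a higher mean. Rgs9, known for ending the light response in photoreceptors, was at 121 in the combined group and 119 in Abcg1 cKO adrenals (log2 ratio -0.03). Rgs11, which acts in retinal bipolar cells, was lower, at 941 and 640 (-0.56), and it shares its locus with Arhgdig on the opposite strand. Rgs6, at 2.97 and 4.90, was too low to be described by a ratio. The Rgs7 and Rgs11 means thus differed in opposite directions between the groups.

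Set per length of exon, the R7 group as a whole was at a like level in both groups, but its make-up was not the same. The summed R7 level was 282 normalized counts per kb of exon in the combined group and 276 in Abcg1 cKO adrenals. Rgs11 made up 79.3% of it in the combined group and 55.2% in Abcg1 cKO adrenals. Rgs7 made up 13.8% and 37.8%, and Rgs9 6.73% and 6.77%. Rgs11 was 5.74 times the per-kb level of Rgs7 in the combined group, and 1.46 times in Abcg1 cKO adrenals. These sums, shares and ratios depend on the length used, and exon length was taken after the data were seen. Rgs7 and Rgs11 have 6019 and 4206 bases of exon, but longest coding lengths of 1431 and 1398 bases. Per coding length, the 2 genes would therefore stand closer to each other in both groups.

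The partners of R7 proteins included 2 genes with higher means. Gnb5, the beta subunit that every R7 protein binds, was at 1159 and 1171 (log2 ratio 0.01). Its per-kb level was 9.55 times that of Rgs7 in the combined group and 3.61 times in Abcg1 cKO adrenals. Rgs7bp, which anchors R7 complexes at the plasma membrane, was higher, at 42.4 and 53.4 (0.33). Gpr158, a receptor that recruits Rgs7 in the brain, was higher as well, at 64.4 and 109 (0.75). Gpr179, its retinal relative, was at 126 and 118 (-0.09), and Rgs9bp, the anchor of Rgs9, was at 4.47 and 3.396, below the limit of level. Of 4 partners that reached the limit, 2 were higher and none was lower, beside 11.1% and 13.7% of all genes. Rgs7bp has a mean below 50, where 20.0% of all genes were higher. At a minimum mean of 50 only Gpr158 was higher, and the median log2 ratio of the list was 0.01, against 0.17 at the main limit.

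Members of the R4 group went in different directions. Rgs2, which acts chiefly on Gq and lowers vascular tone, had by far the most counts of the family, at 11062 in the combined group and 15296 in Abcg1 cKO adrenals (1.383-fold, log2 ratio 0.47). Of 6914 genes with a mean of 500 or more, 7.48% were higher and the 95th percentile of the log2 ratio was 0.32, below the value of Rgs2. As for Rgs7, this describes differences among genes and not among mice. The mean of Rgs2 was known when the set was chosen, so its place is a description only. Rgs2 is a short gene of 4.82 kb on chromosome 1, from 143999338 to 144004161.

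Rgs4, an inhibitor of Gq and inhibitory G protein signals, was at 1214 in the combined group and 1025 in Abcg1 cKO adrenals (log2 ratio -0.24). This lay within the fold of 1.2. With both group means scaled to the same sum over all genes, its log2 ratio was -0.29, past the limit. Rgs5, a marker of pericytes, lies 45.7 kb from Rgs4 on chromosome 1, and was at 353 and 415 (0.23), also within the limit. The means of these 2 neighbours thus lay on opposite sides of 0.

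Rgs16, a gene induced in activated lymphocytes and a fasting-induced gene in liver, was lower, at 32.0 and 16.1 (log2 ratio -0.95). At means below 50 the ratios of single genes are wide, with a 5th percentile of -1.05 among 2819 genes, of which 36.6% were lower. Rgs16 overlaps an antisense gene, Gm28513, and the sources used here do not give the strand setting of the counting. Its neighbour Rgs8 was at 1.05 and 1.37. Rgs3, a large gene with 17 annotated transcripts that also binds Smad proteins, was at 272 and 271 (-0.0034).

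Of the R4 genes outside the 10, Rgs1, a gene of activated B and T cells, was lower, at 97.5 and 67.1 (-0.53). It lies 241 kb from Rgs2 in the same cluster on chromosome 1. Rgs18, a gene of platelets and their precursors, was at 9.11 and 8.63 (-0.07). Rgs13, at 0.136 and 0.732, was below the limit, and Rgs21 was listed at 0 in both groups. Within the cluster only Rgs2 was higher, and its 5 other neighbours within 1000 kb past the level limit that are not RGS genes had log2 ratios between -0.12 and 0.40.

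All 3 members of the R12 group had means below those of the combined group, Rgs10 by little. Rgs12, a large scaffold with a GoLoco motif that holds inactive alpha subunits, was lower, at 361 and 286 (log2 ratio -0.33). Rgs14, which also has a GoLoco motif and is known from hippocampal neurons, was lower at 27.6 and 22.02 (-0.31), a call that ended with a pseudocount of 10 (-0.23). Rgs10, a small protein of microglia and other immune cells, was at 270 in the combined group and 269 in Abcg1 cKO adrenals (-0.01). Rgs12 overlaps the antisense gene Gm43791.

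In the RZ group, which acts on inhibitory alpha subunits including Gnaz, Rgs17 was higher at 32.3 and 47.5 (0.54), Rgs19 was at 273 and 274 (0.01) and Rgs20 was lower at 7.31 and 5.69 (-0.31). The testis gene Rgs22 was lower at 26.8 and 19.6 (-0.43). Of the 7 RGS genes outside the 10 that reached the limit, 1 was higher and 4 lower, with a median log2 ratio of -0.31. The median moved with the settings, to -0.04 with no filter (3 higher, 5 lower), -0.14 with a pseudocount of 10 and -0.53 at a minimum mean of 50 (0 higher, 2 lower). Over all 17 genes of the family past the limit, 3 were higher, 7 lower and 7 within the fold, with a median of -0.07. Of all genes, 11.1% were higher and 13.7% lower. At means from 5 up to 50, where the called genes Rgs17, Rgs14, Rgs16, Rgs20 and Rgs22 lie, 20.0% of all genes were higher and 36.6% lower.

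**Figure D3:**
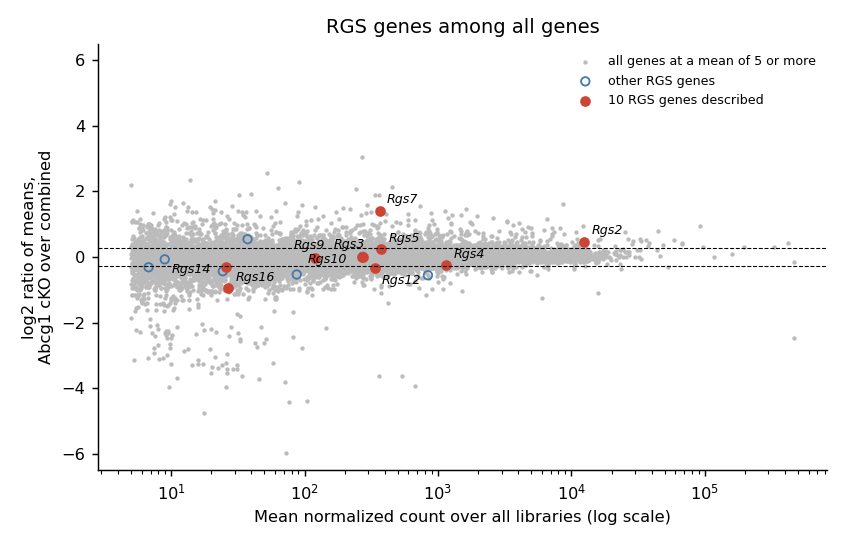
The log2 ratio of group means, Abcg1 cKO over combined, against the mean normalized count over all 12 libraries (log axis) for 15103 genes (grey), the 10 RGS genes described (red) and the other RGS genes past the level limit (blue rings). Dashed lines mark a fold of 1.2. Rgs7, at 1.42, stands above all but a few grey points at its level, whereas Rgs16, at -0.95, lies at the lower edge of the dense part of the cloud.

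Levels of different genes were compared only per kb of exon. Rgs2 was highest by this measure in both groups, at 3050 normalized counts per kb in the combined group and 4217 in Abcg1 cKO adrenals. Rgs4 followed at 392 and 331, so that Rgs2 was 7.78 times and 12.7 times its level. Of the 10 genes, Rgs10 (158 and 157), Rgs5 (77.7 and 91.2), Rgs7 (39.0 and 104), Rgs12 (42.5 and 33.7), Rgs3 (25.2 and 25.1) and Rgs9 (19.0 and 18.7) came next by their level over all libraries. Rgs16 (13.7 and 6.89) and Rgs14 (6.52 and 5.20) came last. In the combined group Rgs7 was below Rgs12 per kb, and in Abcg1 cKO adrenals it was above both Rgs12 and Rgs5. Whether neighbours in this order differ beyond their spread is not known.

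**Figure D4:**
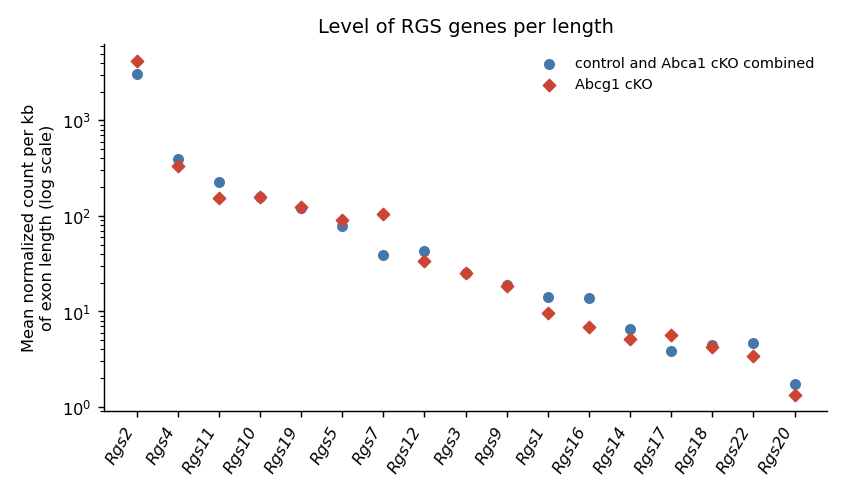
Mean normalized count per kb of exon length (log axis) of the 17 RGS genes with a mean of at least 5, ordered by their level over all libraries, in the combined group (blue circles) and in Abcg1 cKO adrenals (red diamonds). Rgs2 lies highest, at 3050 and 4217, and the symbols are farthest apart for Rgs7, at 39.0 and 104.

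R4 genes made up 85.2% of the summed per-kb level of all 22 RGS genes in the combined group and 88.6% in Abcg1 cKO adrenals, most of it Rgs2. The R7 group made up 6.72% and 5.21%, the R12 group 4.93% and 3.71%, and the RZ group 3.04% and 2.45%. The sum over all 22 genes was itself 4200 and 5292, so a share can be smaller where the level is not. The sums were 282 and 276 for R7, 207 and 196 for R12, and 128 and 130 for RZ. The family is spread over the genome but concentrated on chromosome 1, which holds 5 of the 10 genes and 12 of the 22. Of the 5 members there, Rgs7 and Rgs2 were higher, Rgs16 was lower, and Rgs4 and Rgs5 lay within the fold.

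Genes of the G protein cycle around the RGS proteins were described by lists. Counts in these lists, and in the cell type lists further below, stand beside 11.1% of all genes higher and 13.7% lower. Of 13 alpha subunit genes, 3 were higher, 1 was lower and 9 lay within the fold, with a median log2 ratio of 0.03. The 3 higher genes encode subunits of the inhibitory class, which R7 and RZ proteins act on. Gnai1 was at 630 and 858 (log2 ratio 0.44), Gnaz at 49.6 and 64.8 (0.38) and Gnao1 at 414 and 517 (0.32). The other inhibitory subunits of the list, Gnai2 and Gnai3, had log2 ratios of -0.05 and 0.01. Gna14, of the Gq group, was lower at 1464 and 1201 (-0.29).

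Of 13 beta and gamma subunits past the limit, 1 was higher and 1 lower, with a median of 0.02. Gng4, a gamma subunit of neurons, was at 233 and 369 (0.66), and Gnb4 at 572 and 445 (-0.36). Among 10 other genes with a GoLoco or RGS-like domain, 1 was higher and 4 lower, with a median of -0.16. Gpsm2, which orients the mitotic spindle, was lower at 71.5 and 49.3 (-0.53), and Axin2, a target of Wnt signalling, at 678 and 502 (-0.43). Gpsm3 had a log2 ratio of -0.38, Grk4 one of -0.31 and Grk5, a receptor kinase, one of 0.27.

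Of the receptors through which the gland is driven, 2 lay within the fold and 1 just past it. Mc2r, the ACTH receptor, was at 10012 and 9560 (log2 ratio -0.07), and Agtr1b, the angiotensin receptor of the zona glomerulosa, at 391 and 357 (-0.13). Agtr1a, the other angiotensin receptor of this type, was just past the fold at 3047 and 3663 (0.27). Of 12 receptors 4 were higher, 1 was lower and 7 lay within, with a median of -0.07. At a minimum mean of 50, 2 were higher and 0 lower. Sstr2, a somatostatin receptor, was at 33.1 and 62.8 (0.90), Avpr1a, a vasopressin receptor, at 12.98 and 19.6 (0.56), and Ptger3, a prostaglandin E receptor, had a log2 ratio of 0.28. Adora2b, an adenosine receptor, was lower at 33.5 and 18.3 (-0.84).

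Among 19 effectors of G proteins, 7 were higher and 3 lower, with a median of 0.12. At a minimum mean of 50, 4 were higher and 2 lower. Adcy8, Adcy2, Kcnj3 and Kcnj5 have means below 50, where 20.0% of all genes were higher and 36.6% lower. Adcy8, a calcium-stimulated adenylyl cyclase, was at 20.0 and 79.0 (1.93), a ratio above that of Rgs7. Adcy2 and Adcy5, also adenylyl cyclases, had log2 ratios of 0.58 and 0.54. Plcb4, a phospholipase C downstream of Gq, was at 374 and 491 (0.39), and Kcnj3, a potassium channel opened by beta and gamma subunits, at 8.17 and 10.8 (0.36). Kcnj5, a channel of the same kind known from the human zona glomerulosa, was lower at 44.0 and 28.4 (-0.61).

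Markers of several cell types differed between the groups beside these genes. In whole-gland RNA, more cells of a type and more RNA per cell cannot be told apart. All 10 medulla markers were higher, with log2 ratios from 0.29 to 0.83 and a summed mean of 161146 in the combined group and 220447 in Abcg1 cKO adrenals, led by Pnmt (0.83) and Th (0.77). All 8 adipocyte markers were higher too, from 0.58 for Plin1 to 2.58 for Lep, with sums of 15129 and 35605. At a fold of 1.5, 2 of the medulla markers and 7 of the adipocyte markers were higher. No marker of either list was at 0, and the part of medulla or fat in the ratio of Rgs7 or Rgs2 was not tested.

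For Rgs1 and Rgs16, the lymphocyte list is given beside them. Of 8 lymphocyte markers considered, 5 were lower and none was higher, with a median log2 ratio of -0.63 and summed means of 546 and 449. All 5 have means below 50, where 36.6% of all genes were lower. The median was -0.38 with a pseudocount of 10, and over genes with a mean of at least 50 it was -0.20 with 0 lower. Cd79a was lowest, at 21.6 and 9.09 (-1.16), followed by Cd3e (-0.92), Ms4a1 (-0.90), Cd3d (-0.67) and Cd79b (-0.59). No lymphocyte marker was at 0. Macrophage markers, beside Rgs10, had a median of -0.03 over 8 genes, with none higher and 1, Cd68 (-0.30), lower. The part of these cells in the ratios of Rgs1 and Rgs16 was not tested.

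Hepatocyte markers, a list added after the data were seen, also had lower means beside Rgs16, which liver cells can express. Of 8 such genes 7 were lower and none was higher, with a median log2 ratio of -3.28 and summed means of 1265 in the combined group and 314 in Abcg1 cKO adrenals. Alb, the serum albumin, was at 781 and 62.1 (-3.63), and Apoa1, an apolipoprotein, at 103 and 6.34 (-3.83). Ahsg was the exception, at 205 and 223 (0.12). No marker of the list was at 0. How many adrenals of the combined group carried these transcripts cannot be seen from the means, and their part in the mean of Rgs16 was not tested.

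For Rgs5 and Rgs4, genes known from vessels, mural markers had a median log2 ratio of -0.0042 over 10 genes. Of them 2 were higher, the contractile genes Acta2 (0.64) and Tagln (0.34), and none was lower. Pdgfrb, Abcc9 and Kcnj8, which mark pericytes, had log2 ratios of -0.07, 0.16 and -0.04. Endothelial markers had a median of -0.07 over 8 genes, and 1, Esam (-0.31), was lower. Schwann and sustentacular markers had a median of 0.27 over the 5 of 6 genes past the level limit, with Gfap (0.47), Fabp7 (0.37) and S100b (0.27) higher. These 3 genes have means below 50, and over genes of at least 50 the list had none higher and a median of -0.09. With no filter its median was 0.13.

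In the cortex lists, 6 of 9 cortex markers were higher, with a median log2 ratio of 0.30, beside the higher mean of Rgs2. These were Akr1b7 (0.79), Mrap (0.61), Star (0.44), Cyp11b1 (0.31), Cyp21a1 (0.30) and Cyp11a1 (0.30). The other 3 lay within the fold, Nr5a1 (0.12), Mc2r (-0.07) and Hsd3b1 (-0.15). At a fold of 1.5, 2 of the 9 cortex markers were higher. Of 8 zona glomerulosa markers none was higher and 2 were lower, Shh (-0.61) and Vsnl1 (-0.31), with a median of -0.16. The aldosterone synthase gene Cyp11b2 was at 3163 and 3483 (0.14). Whether cortical content moved the RGS means was not tested.

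**Figure D5:**
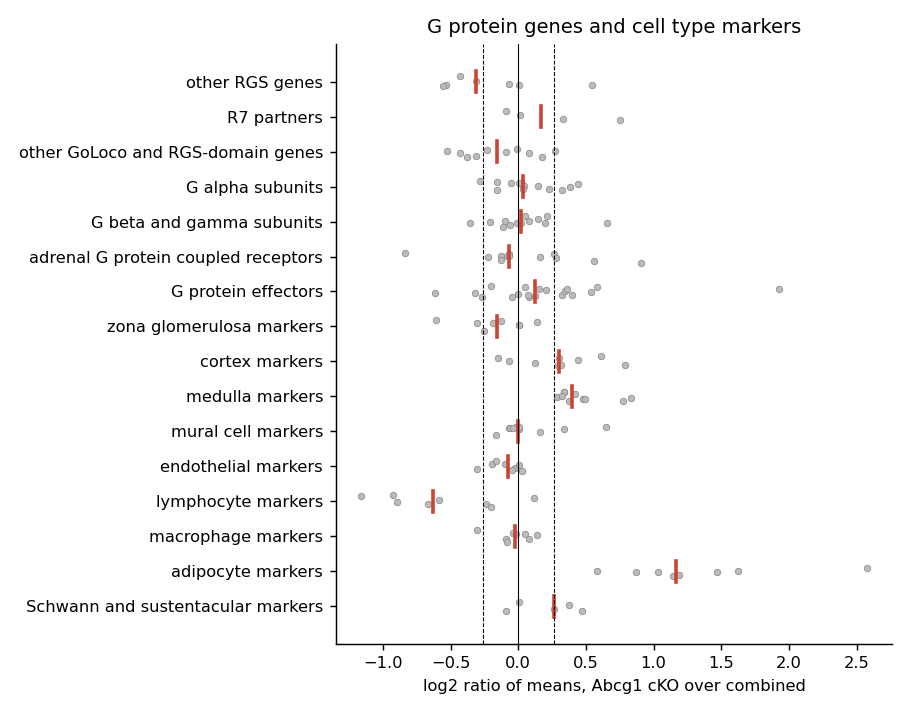
The log2 ratio of group means, Abcg1 cKO over combined, of each gene with a mean of at least 5 in 16 lists (grey points, spread vertically for legibility) with the median of the list (red bar). Dashed lines mark a fold of 1.2. All medulla and adipocyte markers lie beyond the right line, and the median of the lymphocyte markers is -0.63.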

How the data were processed

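Polyadenylated RNA of whole adrenals was sequenced in 12 libraries, 4 for each genotype. Per the methods and the submitters' processing notes, reads were demultiplexed with bcl2fastq 2.20.0.422, trimmed with cutadapt 4.0, checked with FastQC 0.11.9 and mapped to mm10 with STAR 2.7.10a. Uniquely mapped reads were counted per gene with HTSeq 0.13.5 and normalized with DESeq2 1.38.3. The signal used here is the group mean of these size factor normalized counts, as the authors deposited it. A further 12 columns hold single libraries under names that are not among the sample labels, so they were left out. The 4 columns of the authors' comparison hold a fold change, its error, a p-value and an adjusted p-value, and were not used either. The planned fit across libraries was therefore not run.

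Ratios were computed in Python 3.11.15 with pandas 2.3.3 and tested on simulated data. The minimum mean was 5, the pseudocount 1 and the fold 1.2. Alternatives were pseudocounts of 0.1 and 10, minimum means of 50 or none, folds of 1.5 and 2, median centring, levels per kb of coding length and, added after the data were seen, equal sums of the means and levels per kb of exon. The members and the 16 lists were chosen with earlier results of these data known. Named were all members, at most 6 genes per list past the fold, all R7 partners, Mc2r, Agtr1a and Agtr1b. Any other gene was named after its values were seen. Some listed or neighbouring genes are not reported here. Of 159 listed genes, 2 were found under an older symbol and 1 was not found. Gene positions and exon lengths came from GENCODE M21 (GRCm38), and neighbours and promoters from RefSeq for GRCm38.p6, which may differ from the annotation that was counted.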

Additional observations from a re-analysis of the deposited data

How the results depend on the processing

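The count of members past the fold of 1.2, 2 higher and 3 lower, was met again with a pseudocount of 0.1, with median centring and with no filter on level. With a pseudocount of 10 it was 2 higher and 2 lower, since Rgs14 came to -0.23, and with equal sums of the group means it was 2 higher and 4 lower, since Rgs4 came to -0.29. Over genes with a mean of at least 50, 2 members were higher and 1 lower, because Rgs14 and Rgs16 do not reach that level. A fold of 1.5 left 1 higher (Rgs7) and 1 lower (Rgs16), and a fold of 2 left 1 higher (Rgs7) and 0 lower. Rgs16 came to -0.69 with a pseudocount of 10, and no member changed sign under these settings. Counts and medians of the gene lists moved with the level limit, the fold and the pseudocount as well, as given above for the other RGS genes, the lymphocyte markers and the Schwann markers, and the Schwann median changed sign. Equal sums of the means shift every log2 ratio by -0.04. The rank by level among the 10 genes changed for 5 of them per kb of exon, for 3 per kb of coding length and for 4 with an unweighted mean of the groups. No paired analysis was possible because the group means carry no replicate numbers, and for the same reason no replicate could be left out. Depth per library is not known, so the precision of each mean is unknown too.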
